A study of Mus musculus with 2 samples.

Results

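Bex2, Bex4 and Bex1, the 3 members of the brain-expressed X-linked (BEX) family listed under these symbols, were followed through single-cell RNA sequencing of alveolar type 2 (AT2) cell organoids grown with or without interleukin-1β (IL-1β). They are 3 of the 27998 genes in the deposited tables, taken by symbol there and matched to the annotation by Ensembl gene ID. They were chosen by measured values, namely the share of cells positive for them and their level in epithelial and stromal cells of each library. Those values are therefore a description below and carry no test.

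AT2 cells, the surfactant-producing stem cells of the alveolus, came from Sftpc-CreERT2;R26RTomato mice of the C57BL/6 strain given tamoxifen, in which Cre is driven by the surfactant protein C promoter, and were cultured with lung stromal cells. Control organoids received PBS and treated organoids received IL-1β, and all else in the labels was shared by both groups. The design text gives 2 weeks of culture, the study's legend a later day, and the labels no dose. Each condition is 1 library of 10x Genomics droplet sequencing, so no spread between replicates can be given. The stated 95% intervals cover counting error only, and a difference between conditions cannot be told apart from one between libraries.

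BEX proteins are small, largely unfolded proteins without enzyme activity, which act by binding partners. They are best known from brain, where Bex1 and Bex3 bind the p75 neurotrophin receptor Ngfr and take part in neuronal survival and differentiation, and Bex2 is known to bind the transcription factor Lmo2. The genes lie side by side on the X chromosome with the related TCEAL genes, whose proteins resemble a transcription elongation factor.

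All 3 genes lie on chromosome X in the GRCm38 build, by the GENCODE M21 annotation. Bex2 (ENSMUSG00000042750) occupies chrX:136066564-136068236 on the minus strand, Bex4 (ENSMUSG00000047844) chrX:136138996-136140443 on the plus strand, and Bex1 (ENSMUSG00000050071) chrX:136213972-136215513 on the minus strand. Bex2 and Bex4 are 70.8 kb apart and Bex4 and Bex1 73.5 kb. Their annotated coding sequences have 129, 118 and 128 codons. Bex1 is overlapped on the other strand by Tceal7, of which no UMI was found in the epithelial and stromal cells of either library. Bex3, which the files list under its older symbol Ngfrap1, lies beyond Bex1 at chrX:136270253-136271978 on the plus strand.

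Because the genes differed in level and in their change, the RefSeq promoter windows of all 4 are shown, each from 250 bases before to 50 bases after the start of the gene, 5′ to 3′ on the gene's own strand. Capitals mark CACGTG, an E-box that reads the same on both strands. The windows lie at chrX:136068187-136068486 for Bex2, chrX:136270003-136270302 for Ngfrap1, chrX:136138746-136139045 for Bex4 and chrX:136215464-136215763 for Bex1, in the GRCm38.p6 build.
Bex2: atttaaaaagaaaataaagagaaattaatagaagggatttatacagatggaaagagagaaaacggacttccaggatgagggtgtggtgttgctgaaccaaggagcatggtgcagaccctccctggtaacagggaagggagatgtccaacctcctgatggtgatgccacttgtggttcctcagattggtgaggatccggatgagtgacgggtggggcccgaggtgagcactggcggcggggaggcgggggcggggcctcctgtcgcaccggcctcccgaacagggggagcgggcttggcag
Ngfrap1: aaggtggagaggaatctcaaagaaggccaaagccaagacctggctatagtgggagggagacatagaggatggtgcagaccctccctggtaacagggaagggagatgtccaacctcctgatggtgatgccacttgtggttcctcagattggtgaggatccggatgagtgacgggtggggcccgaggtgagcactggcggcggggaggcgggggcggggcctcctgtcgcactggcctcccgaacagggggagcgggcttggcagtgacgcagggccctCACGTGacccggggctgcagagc
Bex4: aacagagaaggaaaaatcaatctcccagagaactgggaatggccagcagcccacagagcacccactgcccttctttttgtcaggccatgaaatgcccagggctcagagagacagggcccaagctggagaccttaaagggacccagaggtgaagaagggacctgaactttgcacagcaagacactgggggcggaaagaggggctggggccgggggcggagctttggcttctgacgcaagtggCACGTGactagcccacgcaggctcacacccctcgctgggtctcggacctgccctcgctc
Bex1: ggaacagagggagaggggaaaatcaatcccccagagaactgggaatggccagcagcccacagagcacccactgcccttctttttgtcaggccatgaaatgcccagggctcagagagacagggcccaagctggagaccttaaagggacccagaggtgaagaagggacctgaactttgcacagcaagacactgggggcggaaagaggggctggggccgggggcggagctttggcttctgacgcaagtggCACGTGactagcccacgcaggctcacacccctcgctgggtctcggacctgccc

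The promoter windows fell into pairs of near-identical sequence. A local alignment of the Bex4 and Bex1 windows held 290 columns without a gap, 287 of them identical. That of the Bex2 and Ngfrap1 windows held 199 columns without a gap, 197 of them identical. Across these pairs no alignment was longer than 30 columns. CACGTG was found in the windows of Ngfrap1, Bex4 and Bex1 and not in that of Bex2, against 7.15% of the 32851 promoter windows of the table. In each of these 3 windows it was part of CACGTGAC, which 2.25% of all windows held. TGACGCA was in the same 3 windows and in 2.12% of all. GGGCGG, a GC box, was in all 4 windows and in 35.7% of all. In the Ngfrap1 window CACGTG and TGACGCA start at bases 278 and 264, after the stretch shared with Bex2, which ends at base 263 there and at the last base, 300, of the Bex2 window. The bases that follow in Bex2 were not searched. Each motif was searched on both strands. These matches describe the letters and say nothing of a factor's binding.

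The 3′ ends of the transcripts, which this assay reads, are partly alike. The last 500 bases of Bex1 and Bex2 aligned over 490 columns with 86.1% identity. Of the 441 windows of 60 bases in each of these ends, 49 occurred in both genes, and 101 of the 441 of Bex4 occurred in transcripts of Gm12245 or Gm4322. Reads can thus be assigned for most of each end, and the split between Bex1 and Bex2 is the least certain.

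The control library held 33965848 unique molecular identifiers (UMIs, counted cDNA molecules) in 2101 cell barcodes and the IL-1β library 41220175 in 3066, and 5142 barcodes passed the cell filters. Clustering without the Bex genes and the listed genes gave 1285 control and 2584 IL-1β epithelial cells, with Epcam at 205 and 300.2 UMIs per 1000000 (CPM), and 798 and 475 stromal cells, with Epcam at 9.61 and 18.1 and Col1a2 at 1440 and 1474. Epithelial clusters are numbered E1 to E10 and carry names given here from marker genes, as AT2-like, pAT2-like (primed AT2), AT1-like, DATP-like (damage-associated transient progenitor) and cycling. The pAT2-like E1 and E8, the AT2-like E3 and E5, and E2 were joined as AT2-lineage-like cells, with 963 control and 1790 IL-1β cells. E2 carries only that joint name, as it scored highest for the pAT2-like markers but had the AT2 marker Sftpd and no pAT2-like marker among its 10 leading genes. In each of the 10 clusters 95.5% or more of the cells were from the same library. The libraries shared 11 cell barcodes, which held 35 Bex2 and 14 Bex4 UMIs in the control library and none in the other. Ddx3y, a Y-linked gene, was found in 47.6% to 68.4% of cells of each class and library, and Xist in 0.376% to 1.26%. The highest Xist share was that of IL-1β stromal cells, where 6 cells held 82 UMIs.

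Bex2 was found in most control AT2-lineage-like cells and in few IL-1β cells of the same class. In control AT2-lineage-like cells it stood at 826 CPM (95% interval 811 to 841, 11569 UMIs in 963 cells) and in IL-1β AT2-lineage-like cells at 25.0 (23.0 to 27.3, 533 UMIs in 1790 cells). The IL-1β level was 33.0-fold lower (30.3 to 36.1). Different clusters hold most of the class in each library, E3 and E5 in the control and E1, E2 and E8 in the IL-1β library. Over all epithelial cells the levels were 687 (676 to 699) and 17.8 (16.3 to 19.3), 38.7-fold lower (35.5 to 42.2).

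Bex4, which is known to bind tubulin and Sirt2, followed the same pattern at a lower level. In AT2-lineage-like cells it stood at 222 CPM (214 to 230) in the control and at 5.78 (4.80 to 6.89) in the IL-1β library, 38.4-fold lower (32.1 to 46.4). In all epithelial cells it was 45.5-fold lower (38.5 to 54.2), from 206 to 4.53.

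Bex1, the p75 neurotrophin receptor partner, was rare throughout. Epithelial cells held 5.21 CPM (4.24 to 6.34, 100 UMIs) in the control and 0.963 (0.650 to 1.38, 30 UMIs) in the IL-1β library, 5.41-fold lower (3.57 to 8.44). Its interval does not overlap those of Bex2 and Bex4. Over the whole table, 4.60% of the 12047 genes with at least 50 epithelial UMIs were at least 2-fold lower in the IL-1β library and 7.21% at least 2-fold higher. All 3 Bex genes were among the lower ones, which the way they were chosen fixes, and by ratio Bex4 stood 3rd from the lowest, Bex2 5th and Bex1 108th. In AT2-lineage-like cells, where 3.54% of genes were at least 2-fold lower and 7.52% at least 2-fold higher, they stood 4th, 7th and 42nd.

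**Figure D1:**
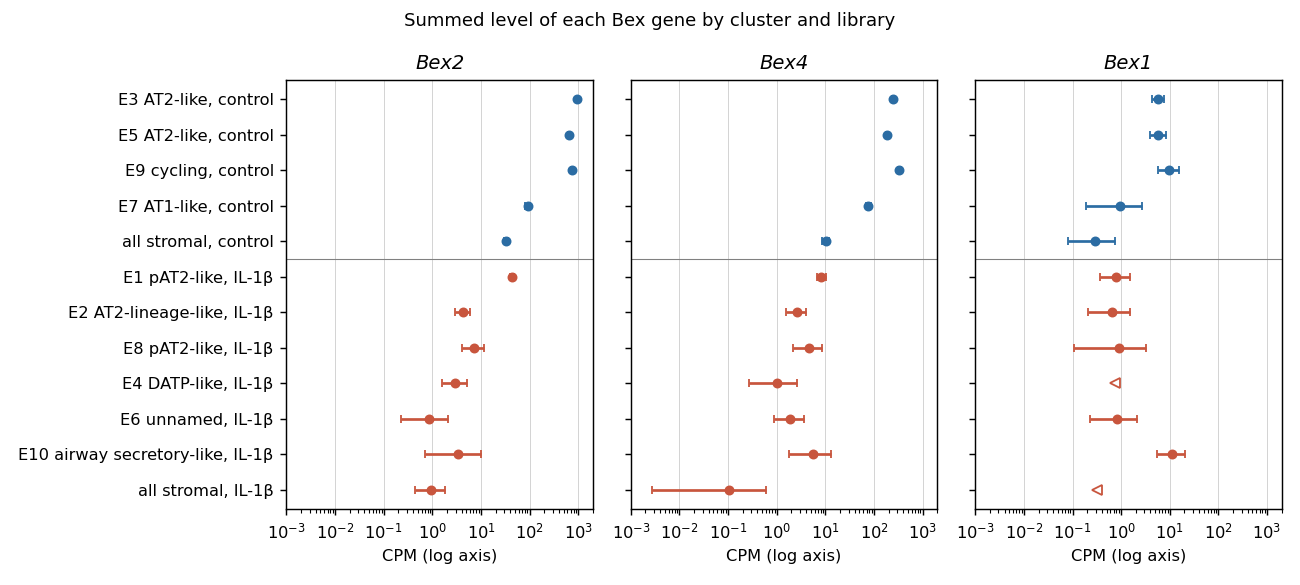
Summed UMIs per 1000000 (CPM) of Bex2, Bex4 and Bex1 (log axis) in clusters of the control library (blue) and of the IL-1β library (red), with exact Poisson 95% intervals over counts; open triangles are classes with 0 UMIs, drawn at the level that 3 UMIs would give. Bex2 and Bex4 reach 948 and 331 in control clusters, whereas in IL-1β clusters they reach 42.7 and 8.23, and the highest Bex1 level of an IL-1β cluster, 11.2, is that of E10.

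Counted as cells, Bex2 was detected in 891 of 963 control AT2-lineage-like cells (92.5%, exact Clopper-Pearson 95% interval 90.7 to 94.1) and in 139 of 1790 IL-1β cells of that class (7.77%, 6.57 to 9.10). Bex4 was detected in 68.2% (65.2 to 71.2) and 3.80% (2.96 to 4.79), and Bex1 in 7.17% (5.62 to 8.98) and 0.838% (0.470 to 1.38). Median depth was 13976 UMIs per control cell and 11375.5 per IL-1β cell. With every cell thinned to 5000 UMIs, leaving out 23 control and 5 IL-1β cells below that depth, Bex2 was detected in 86.1% and 4.87%, Bex4 in 50.9% and 1.74%, and Bex1 in 2.34% and 0.392%.

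The number of Bex2 UMIs in a cell was also wide-ranging. Control AT2-lineage-like cells had a median of 10 Bex2 UMIs with quartiles of 4 and 18 and a highest value of 64, and 688 of 963 held 5 or more. In the IL-1β library the median and both quartiles were 0 and the highest value 28. Of the 139 positive IL-1β cells, 71 held 1 UMI, 36 held 2 to 4, 16 held 5 to 9, 12 held 10 to 19 and 4 held 20 or more. The IL-1β level thus came from a small number of cells, some of them within the range of control cells. For Bex4 the control median was 2 with quartiles of 0 and 5, and the highest IL-1β value was 5.

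**Figure D2:**
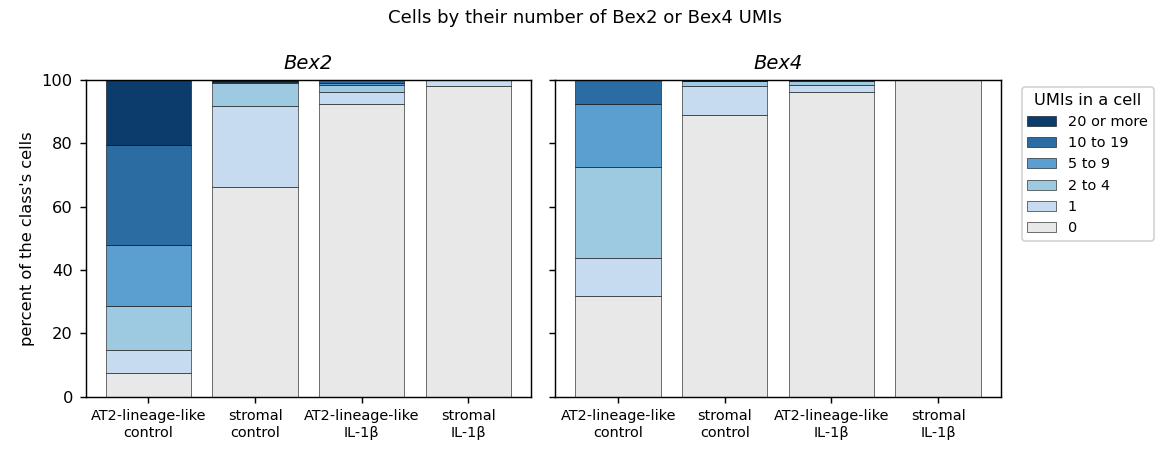
Percent of the cells of a class (stacked bars, adding up to 100) by their number of Bex2 (left) or Bex4 (right) UMIs, for AT2-lineage-like and stromal cells of each library. Cells with 0 UMIs of Bex2 make up 7.48% of control and 92.2% of IL-1β AT2-lineage-like cells.

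Within the control library, Bex levels differed between epithelial clusters. E3, an AT2-like cluster of 568 control cells led by Cst8 and Acoxl, had the highest Bex2 level, 948 CPM (928 to 969), with Bex2 in 97.4% of its cells. E5, an AT2-like cluster of 379 control cells led by Cbr2 and Etv5, had 647 (625 to 669) and 86.5%. The ratio of E3 to E5 was 1.47 (1.41 to 1.53) for Bex2 and 1.34 (1.24 to 1.45) for Bex4. For Bex1 it was 0.980 (0.610 to 1.60), an interval that holds 1. Of 9575 genes, 1.02% were at least 2-fold higher and 2.11% at least 2-fold lower in E3, and none of the Bex genes was. Bex2 and Bex4, which clustering did not use, were among the 10 leading genes of both clusters. Leading genes were ranked against all other epithelial cells, most of which came from the IL-1β library. Their place there thus goes with the difference between libraries by which they were chosen, and is no separate support.

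Cycling control cells (E9, 85 cells, led by Cdca3, Ccna2, Top2a and other genes of the cell cycle) kept Bex2 at 743 (704 to 785), 0.900 times the AT2-lineage-like level (0.849 to 0.953). Their Bex4 level of 331 (305 to 359) was above the 247 of E3 and was 1.49 times the AT2-lineage-like level (1.36 to 1.63). Neither reached a 2-fold difference, which 5.33% of 9947 genes exceeded upward and 2.80% downward. These cells were deeper, with a median of 20381 UMIs.

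AT1-like control cells (E7, 224 cells, led by Ankrd34b, Spock2 and Cav1), which resemble the flat gas-exchange cells of the alveolus, had lower levels. Bex2 stood at 90.5 (80.4 to 102), 9.13-fold below AT2-lineage-like control cells (8.12 to 10.3). Bex4 stood at 76.5 (67.3 to 86.7), 2.90-fold below (2.55 to 3.32). Bex1, with 3 UMIs, had a ratio of 0.165 (0.0334 to 0.501). Of 10184 genes, 7.08% were at least 2-fold lower and 17.7% at least 2-fold higher in this comparison. Bex2 was detected in 38.4% of AT1-like cells and in 18.2% after thinning, and Bex4 in 35.7% and 22.9%.

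Bex2 and Bex4 were thus lower by unequal amounts in AT1-like than in AT2-lineage-like cells. The part of AT2 RNA in the AT1-like levels was not tested. Each UMI stands for 1 molecule read at its 3′ end, so the counts need no correction for length. The share of 60-base end windows found in no other gene differs, at 88.9% for Bex2 and 77.1% for Bex4. Its effect on the ratio of these 2 genes was not tested. Bex2 exceeded Bex4 3.72 times (3.58 to 3.87) in control AT2-lineage-like cells, 2.25 times (2.04 to 2.48) in cycling cells and 1.18 times (0.995 to 1.41) in AT1-like cells. In IL-1β AT2-lineage-like cells the ratio was 4.33 (3.56 to 5.32), an interval that overlaps the one of the same class in the control. Its clusters differed, with 5.18 (4.14 to 6.54) in E1 and 1.65 (0.919 to 3.03, 20 Bex4 UMIs) in E2. Neither of these intervals overlaps that of control AT2-lineage-like cells.

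In the IL-1β library the remaining Bex2 was concentrated in E1, a pAT2-like cluster of 915 IL-1β cells led by Dmkn, Spink5, Gjb1 and Gstm1. E1 made up 35.4% of IL-1β epithelial cells and held 482 of the 553 epithelial Bex2 UMIs (87.2%) and 93 of the 141 Bex4 UMIs (66.0%). Its Bex2 level was 42.7 (38.9 to 46.6) with 12.0% of cells positive, and its Bex4 level 8.23 (6.64 to 10.1). E2, an AT2-lineage-like cluster of 667 IL-1β cells led by Cxcl5, Slc26a4 and Cd14, had Bex2 at 4.25 (2.92 to 5.96). E1 was 10.0 times E2 for Bex2 (7.05 to 14.8) and 3.20 times for Bex4 (1.96 to 5.47), where 1.35% of 10409 genes were at least 2-fold higher in E1 and 2.87% at least 2-fold lower. Of the 33 IL-1β epithelial cells with 5 or more Bex2 UMIs, 30 were in E1.

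In the other IL-1β clusters Bex2 ranged from 0.837 to 7.25. In the DATP-like E4 (380 cells) Bex2 stood at 2.99 (1.54 to 5.21) and Bex4 at 0.995 (0.271 to 2.55), and Bex1 had no UMI, which allows up to 0.746 CPM. E6, a cluster of 354 IL-1β cells led by AW112010, Cttnbp2nl and Tgfb2, scored highest for the AT1-like markers, with 11 of 12 above the other epithelial cells. It stayed unnamed, as the DATP-like AW112010 and Cldn4 outnumbered the AT1-like Hopx among its 10 leading genes. Bex2 stood at 0.837 (0.228 to 2.14) there, beside 90.5 in the control AT1-like E7. In E8 (206 cells, led by Lyz1 and Trf among others) it stood at 7.25 (4.14 to 11.8), with Bex4 at 4.53 (2.17 to 8.33). E10, 51 IL-1β cells with markers of airway secretory cells and led by Ccl20 and Fxyd3, held 10 of the 30 Bex1 UMIs of IL-1β epithelium in 6 cells, a level of 11.2 (5.38 to 20.6). Bex4 stood at 5.61 (1.82 to 13.1) and Bex2 at 3.37 (0.694 to 9.84) there, and all 3 intervals overlap.

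A few cells clustered with the other library. The 29 control cells in clusters made up mostly of IL-1β cells had Bex2 at 195 (156 to 241), with 12 of them positive, and Bex4 at 118 (88.0 to 155). Among them, the 13 control cells in E2 had Bex2 at 361 (288 to 448) beside 4.25 in the 667 IL-1β cells of that cluster. These 13 cells held 83 of the 86 Bex2 UMIs of the 29 cells. Their median was 2 Bex2 UMIs and their highest value 33, so a few cells carried much of that level. The 12 control cells in E6 held 1 Bex2 UMI, a level of 6.10 (0.154 to 34.0). The 11 IL-1β cells in clusters made up mostly of control cells held 3 Bex2 UMIs, a level of 16.8 (3.47 to 49.2), and no Bex4 UMI.

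Bex2 and Bex4 were often found in the same cell. In control epithelial cells both were detected in 749 of 1285 cells, where the product of their shares would give 664. Within control AT2-lineage-like cells these values were 638 and 608, in E3 422 and 414, and in E7 46 and 30.7. In all control epithelial cells, Bex4 was found in 70.7% of Bex2-positive and 25.2% of Bex2-negative cells. In IL-1β epithelial cells both were detected in 36 of 2584, where the product would give 4.74, and within E1 these values were 31 and 5.65. In all IL-1β epithelial cells, Bex4 was found in 23.5% of Bex2-positive and 1.81% of Bex2-negative cells. Bex2-positive epithelial cells were deeper, with a median of 14807 against 9583.5 UMIs in the control and 13462 against 11156 in the IL-1β library. The parts of depth and of the mix of clusters in joint detection were not tested. All 69 control AT2-lineage-like cells with a Bex1 UMI also held Bex2, as 91.9% of the cells without one did.

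Stromal cells of the control library also held Bex2 UMIs, at a level in the range that AT2 marker genes had there. Bex2 was detected in 270 of 798 control stromal cells (33.8%, 30.6 to 37.2), or 13.1% after thinning, at 32.4 CPM (29.5 to 35.6). That is 21.2-fold below control epithelium (19.3 to 23.4), where 15.6% of 12117 genes were at least 2-fold lower in stroma. Stromal cluster S9, of 43 cells, carried the epithelial genes Foxa2, Cldn18 and Cgn among its leading genes, and its 20 control cells held 118 of the 442 Bex2 UMIs. Without S9 the stromal level was 24.6. When cells were instead split by their summed epithelial and stromal markers, the control stromal level was 148 and its ratio to epithelium 0.191, against 0.0472 here.

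Without S9, control stroma held 2.98% (2.66 to 3.33) of the AT2-lineage-like level of Bex2, 3.01% (2.41 to 3.72) of Bex4 and 4.04% (0.816 to 12.2) of Bex1. The 10 AT2 marker genes, among them Sftpc at 3.11%, which was found in 100% of these stromal cells, ranged from 2.09% to 16.7% with a median of 2.89%. Bex2 exceeded Bex4 3.68 times (2.90 to 4.71) in this stroma, beside 3.72 times in AT2-lineage-like cells and 1.18 times in AT1-like cells. With this division of cells, the stromal Bex levels lay in the range of these markers. Whether stromal cells express the Bex genes was not tested. Empty droplets were not analysed here and doublets remain in the data, so the parts of free RNA and doublets were not tested. Control AT1-like cells were above the stromal level, at 90.5 against 24.6 for Bex2. Of them, 18 of 224 (8.04%) held 5 or more Bex2 UMIs, against 7 of 798 (0.877%) of all control stromal cells. All 7 were in S9. Median depths were 11647 UMIs in these AT1-like cells and 15741 in all control stromal cells. The AT1-like cells also held AT2 markers, with Sftpc at 24357 and Sftpa1 at 1045, beside 100325 and 8220 in control AT2-lineage-like cells. Relative to the level in that class, AT1-like Bex2 was lower than each of the 10 AT2 markers. Bex4, at 76.5 beside 222, was not. Its relative level lay within the range of the markers, above Sftpa1 and below Lpcat1, which was at 717 beside 1129. The part of AT2 RNA in the AT1-like Bex levels was not tested.

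In IL-1β stroma, 9 of 475 cells held a Bex2 UMI (1.89%), a level of 0.952 (0.435 to 1.81), and 1 held a Bex4 UMI. Bex1 was detected in 0 of 475 cells, which allows a share of up to 0.632%. Without S9 the Bex2 level was 3.96% (1.80 to 7.58) of that in IL-1β AT2-lineage-like cells, beside 3.77% to 20.6% for the 10 AT2 markers with a median of 4.80%. The IL-1β stroma was 34.1-fold below control stroma in Bex2 (17.8 to 75.0), where 11.7% of 11377 genes were at least 2-fold lower. Those are 1335 genes lower and 471 higher, and with scaling by the median of gene ratios 779 and 699, where the Bex2 ratio was 0.0369 in place of 0.0294. Without S9 the Bex2 ratio of IL-1β to control stroma was 0.0403, and both stromal Bex2 levels lay in the range of the AT2 markers. With S9, IL-1β stroma held 3.80% (1.73 to 7.27) of the AT2-lineage-like Bex2 level, below the lowest marker share of 5.65%. Bex4, with 1 UMI, stood at 1.91% (0.0479 to 10.8) without S9, also below the lowest marker. Whether the difference is a change in stroma was not tested, nor was the part of free RNA in it. The intervals of the Bex2 level of E4, E6 and E10 overlap that of IL-1β stroma, whereas those of E1, E2 and E8 lie above it. By share of positive cells, only E1 of these clusters, at 12.0% (9.98 to 14.3), lies above stroma (0.870 to 3.57). The shares of E2 (1.84 to 4.59) and E8 (1.69 to 7.51) overlap that of stroma.

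**Figure D3:**
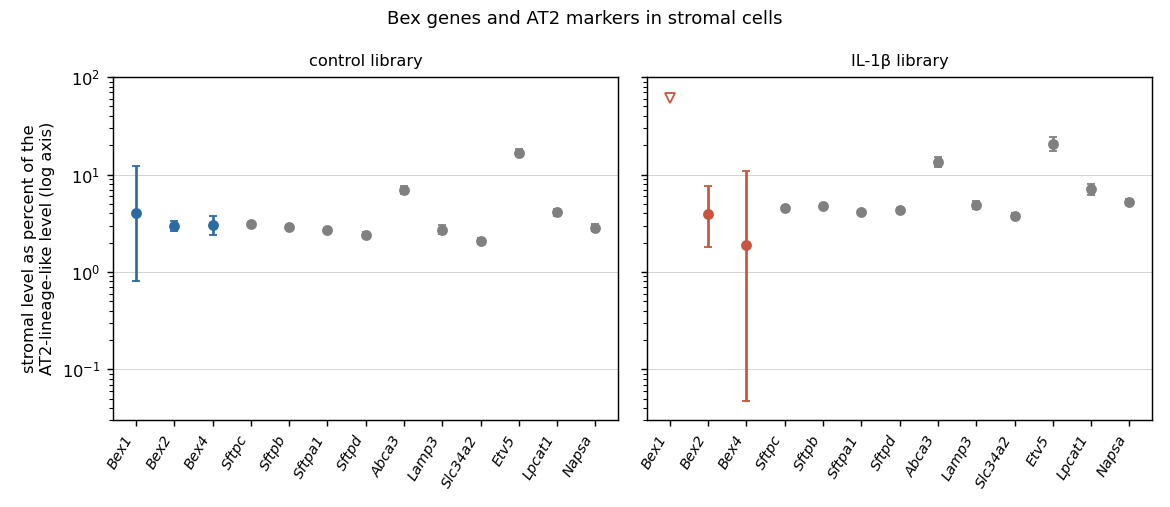
Stromal level without cluster S9 as percent of the AT2-lineage-like level (log axis), in the control (left) and IL-1β (right) libraries, for the Bex genes (colored) and 10 AT2 markers (grey), with exact 95% intervals over counts; the open triangle for Bex1 is an upper limit, as it had 0 stromal UMIs. The Bex2 points, 2.98% and 3.96%, sit beside most of the markers, whose medians are 2.89% and 4.80%.

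The other BEX and TCEAL genes did not share the size of the decrease. Of 9 such genes in the files, 4 had at least 50 epithelial UMIs. Of these, 1 was at least 2-fold lower in the IL-1β library, where 4.60% of all genes were. None was at least 2-fold higher, where 7.21% of all genes were. Their median log2 ratio was -0.39 beside 0.06 over all genes. Ngfrap1 (Bex3), which shares most of its promoter window with Bex2 and also binds the p75 receptor, stood at 367 in control and 276 in IL-1β epithelium, a ratio of 0.752 (0.729 to 0.776), and in stroma at 152 and 108. Wbp5 (now Tceal9) was the most abundant family gene, at 1134 and 880, a ratio of 0.776 (0.762 to 0.790). Tceal8 was at 79.5 and 37.8, a ratio of 0.476 (0.441 to 0.514). Tceal1 had 8.50 and 11.2. Bex6, Tceal6 and Tceal7 had no UMI in these classes, and Tceal3 was at 10.6 in control stroma with 1 UMI in control epithelium.

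Position along the chromosome was examined because Bex2, Bex4 and Bex1 are neighbors. Within 250 kb on either side of the 3 genes, 14 genes are in the files and 9 had at least 50 epithelial UMIs. Besides the Bex genes, 3 of these 6 others were at least 2-fold lower in the IL-1β library and none at least 2-fold higher. Arxes2 and Arxes1, which lie next to Bex2 and were named after their values were seen, were at 19.2 and 3.34 in control and at 1.73 and 0.193 in IL-1β epithelium. Their ratios were 0.0901 (0.0664 to 0.120) and 0.0577 (0.0204 to 0.133). Their transcripts aligned over 727 columns with 99.2% identity, so the split of reads between them is uncertain. Tceal8, between Bex4 and Bex1, was the third, and beyond Bex1 Wbp5 and Ngfrap1 stayed above 0.75. Bhlhb9, on the far side of Arxes2, had a ratio of 1.67 (1.35 to 2.09). Over the X chromosome as a whole, 6.91% of 362 genes were at least 2-fold lower.

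**Figure D4:**
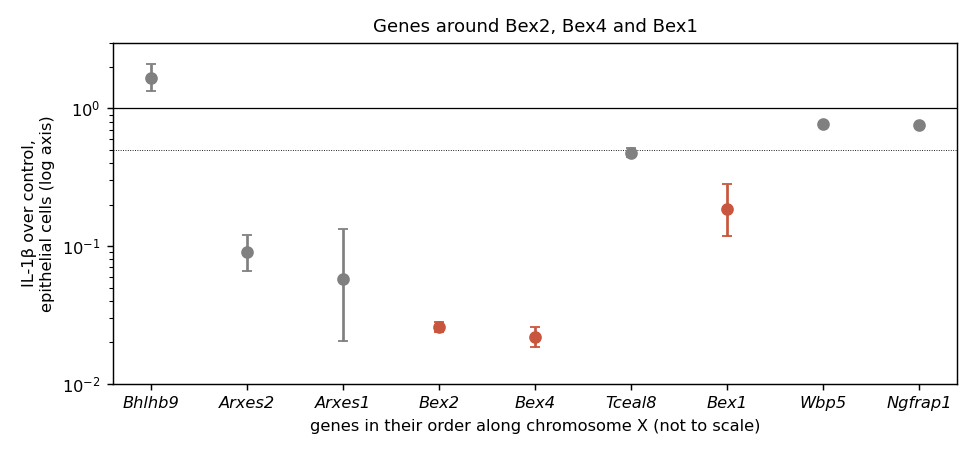
Ratio of IL-1β to control level in epithelial cells (log axis) of the 9 genes with at least 50 UMIs within 250 kb of Bex2, Bex4 and Bex1, in their order along chromosome X, with exact 95% intervals over counts; Bex genes are red, the solid line is no difference and the dotted line a 2-fold lower level. The ratio is 1.67 at Bhlhb9, below 0.1 from Arxes2 to Bex4, 0.476 at Tceal8 and 0.752 at Ngfrap1.

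The 9 ARMCX and GASP genes, which are another gene family of the same stretch of the X chromosome, were highest in the other class of cells. All 9 were at least 2-fold higher in stroma than in epithelium of the control library, where 21.3% of all genes were. An example is Armcx2, at 42.2 in stroma and 1.41 in epithelium. Of the 6 with enough epithelial UMIs, none differed 2-fold between the libraries, where 4.60% of all genes were lower and 7.21% higher.

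Partners of BEX proteins were present in part. Ngfr, the receptor of Bex1 and Bex3, had 3 UMIs in all, 2 in IL-1β epithelium and 1 in control stroma, and Lmo2, the partner of Bex2, had 5 UMIs in control and 8 in IL-1β epithelium against 136 and 85 in stroma. None of the 5 measured partners reached a 2-fold difference in epithelium, where 4.60% of all genes were lower and 7.21% higher. Their median log2 ratio was 0.06.

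Among neurotrophins and their receptors, 5 of 10 had enough epithelial UMIs, and 1 was at least 2-fold lower, as 4.60% of all genes were. This was Bdnf, a ligand of Ngfr, at 28.7 and 11.2, a ratio of 0.389 (0.339 to 0.446). In the control library Bdnf was mostly in AT1-like cells, at 153, 38.2 times the level in AT2-lineage-like cells (28.9 to 51.3), and 224 of the 1285 cells of control epithelium were AT1-like. Sort1, which binds neurotrophin precursors, was at 133 and 90.1. Of 10 neuroendocrine and neuronal genes, 2 had enough epithelial UMIs, Nnat and Uchl1. Neither differed 2-fold over all epithelial cells, where 4.60% of all genes were lower and 7.21% higher. In AT2-lineage-like cells Nnat, a small membrane protein known from developing brain, was at 17.2 and 35.3, a ratio of 2.05 (1.77 to 2.38), where 7.52% of genes were at least 2-fold higher. Chga, Syp and Calca each stayed at or below 0.261 CPM in epithelium. Snap25, a protein of vesicle release, had 20 epithelial UMIs, all of them from IL-1β cells. Control stroma held 1 Snap25 UMI and IL-1β stroma 429, levels of 0.0734 and 45.4 and a ratio of 618 (110 to 24481), where 4.14% of genes were at least 2-fold higher.

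Across the 18 combinations of cluster and library with at least 50 cells, the gene whose log2 level was most like that of Bex2 among 11147 genes was Bex4 (Pearson r = 0.96), and the reverse held as well. Next to Bex2 came Snhg9 (0.91), Phf24 (0.88), Gnmt (0.86) and Prps2 (0.84). Next to Bex4 came Snhg9 (0.94), Gnmt (0.89), Mlana (0.88) and Fbxo9 (0.88). Bex1, with only 137 UMIs in both libraries, was most like Tesc (0.92), Cbr2 (0.89), Chia1 (0.88), Vasp (0.86) and Pkmyt1 (0.83). Its own r with Bex4 was 0.72 and with Bex2 0.60. These points share 2 libraries, so the values are a description of likeness and not of shared control.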

How the data were processed

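The authors deposited raw counts of UMIs for each gene in each cell, produced by Cell Ranger on GRCm38 (the submitters' notes also name Scanpy 1.3.6). The Bex genes and all lists were chosen with earlier results of these data known. A barcode was kept if it had over 500 and under 7000 genes and over 2000 UMIs. Scrublet marked 3 of 5142 cells (0.0583%), too few for it to have worked, so doublets remain. Cells were clustered with scanpy 1.11.5 and leidenalg 0.10.2 (50 components, 15 neighbors, resolution 1.0), first to part epithelial from stromal clusters and then within each, over 1346 and 1901 variable genes without the Bex and listed genes. A cluster took the marker list with the highest mean log2 fold (pseudocount 0.1) and at least 3 markers found in 10% of its cells. It stayed unnamed where the mean fold was not above 0, or where markers of another list outnumbered its own among its top 10 genes. AT2-like and pAT2-like counted as 1 lineage there, and a cluster with more markers of the other of these lists took the joint name. This naming rule followed a first look at the clusters.

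Levels are summed UMIs per 1000000 (CPM) with exact Poisson 95% intervals, shares carry Clopper-Pearson intervals, and ratios exact conditional ones. For a count of 0, the limit is that of 3 counts. Genes with at least 50 UMIs in both groups together were compared at 2-fold. No p-value was computed. Likeness used log2(CPM + 1) and set each Bex gene against genes with at least 200 UMIs. Bex1, with 137 UMIs, is itself below that minimum. Named genes are the Bex genes, Ngfr, listed genes at least 2-fold apart, the 5 most alike per member, and class markers beside their results. Other listed genes appear as examples chosen after their values were seen, and some listed genes are not reported here. Promoters are RefSeq's, aligned with biopython 1.88. Intervals and calls were tested on simulated Poisson sums, the same assumption that the intervals make. That test holds no spread between cells, so it cannot check the intervals of genes held by a few cells. Alternatives varied the filter, doublets, clustering, scaling and depth.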

Additional observations from a re-analysis of the deposited data

How the results depend on the processing

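No setting turned the direction of a Bex ratio. Over the alternatives the ratio of IL-1β to control epithelium ranged from 0.0229 to 0.0262 for Bex2, from 0.0191 to 0.0229 for Bex4 and from 0.159 to 0.261 for Bex1. Bex2 left its counting interval as the mean over cells (0.0229) and with cells thinned to 5000 UMIs (0.0230). In AT2-lineage-like cells the Bex2 ratio, 0.0303 in the main setting, ranged from 0.0261 to 0.0386. It left its counting interval on both sides, as with the mean over cells (0.0261) and at resolution 0.5 (0.0386). The ratio in that class ranged from 0.0219 to 0.0306 for Bex4 and from 0.107 to 0.184 for Bex1. Thinning lowered the epithelial shares to 73.3% (control) and 3.68% (IL-1β) for Bex2 and to 46.4% and 1.40% for Bex4. Splitting cells by summed markers raised the control shares to 89.4% and 68.4%.

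The control stromal to epithelial ratio of Bex2, 0.0472, became 0.0360 without the 5% of cells with the highest doublet scores, 0.191 under the marker-sum split, 0.0418 with scaling by the median of gene ratios, and 0.0358 without cluster S9, an alternative chosen after seeing the data. That scaling shifted all genes by -0.33 on the log2 scale between stromal libraries, by 0.06 between epithelial ones, and by 0.17 and -0.24 between stroma and epithelium. Counts of epithelial genes at least 2-fold higher and lower were 868 and 554, 2916 and 2179 with no minimum, and 512 and 266 with at least 200 UMIs, where fewer genes are compared. In the other comparisons these minimums moved most counts in the same way, and the median scaling lowered the stromal count of genes at least 2-fold lower from 1335 to 779. The epithelial and stromal split came from the first clustering, so other resolutions changed only the AT2-lineage-like values. With a pseudocount of 10, 3 of the 5 genes most like Bex1 remained, Prps2 dropped out for Bex2 and Fbxo9 for Bex4. No paired analysis was possible because each condition has 1 library, and no replicate could be left out for the same reason. Depth limits Bex1, with 137 UMIs in both libraries.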
